A study of Mus musculus with 28 samples.

Results

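The 8 hepatocyte libraries described here came from 4 mice lacking focal adhesion kinase in liver epithelium and 4 control littermates, and were taken by their labels from 28 RNA-seq libraries in all. KO denotes FVB FAKfl/fl mice carrying Alb-Cre and WT denotes FAKfl/fl littermates without Cre, so that both groups held the floxed alleles and differed by the transgene. The albumin promoter drives Cre in fetal progenitors of hepatocytes and of cholangiocytes, and the deletion therefore also covers bile duct cells. Mice were 6 to 8 weeks old and not on the injury diet used elsewhere in the study, and hepatocytes were obtained by perfusion of the liver and density separation. Each library came from 1 mouse. The 8 whole-liver libraries used for comparison (4 WT and 4 KO) came from other mice of the same genotypes. Neither the sex of these mice nor the hour of collection is given in the sources used here, and Xist, expressed from the inactive X chromosome, reached at most 0.00614 FPKM in hepatocyte libraries.

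Focal adhesion kinase (FAK), encoded by Ptk2, is a cytoplasmic tyrosine kinase that is recruited to clustered integrins and passes signals from the extracellular matrix to Src and paxillin. Hepatocytes divide their tasks along the axis from the portal tract to the central vein. Cells around the central vein, where Wnt signals are strong, make glutamine and carry out much of the metabolism of foreign compounds, whereas cells around the portal tract are rich in enzymes of urea synthesis, amino acid breakdown and gluconeogenesis. Glutamine synthetase is confined to the hepatocytes nearest the central vein.

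FAK RNA was reduced in every KO library. Ptk2 (ENSMUSG00000022607, chr15:73205105-73423191, minus strand, build mm10) had 6.46, 5.71, 5.79 and 5.68 FPKM in WT against 1.29, 1.02, 0.907 and 1.10 FPKM in KO replicates 1 to 4, in that order, as in all lists of values that follow. The groups were far apart, and WT hepatocytes held 5.77-fold more Ptk2 RNA (log2 change -2.53 ± 0.16, standard error, edgeR adjusted p = 9.33e-08). The counts are sums over the gene and do not show which exons were lost. Levels are given in FPKM, the count scaled to gene length and to the library's total, and log2 changes are KO against WT from an edgeR quasi-likelihood fit to the counts of all 16 libraries, with Benjamini-Hochberg adjusted p-values and a call at an adjusted p under 0.05.

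The libraries were rich in hepatocyte markers, and markers of other liver cells were also present. Totals were 16263473 to 19838668 counts in WT and 15062059 to 18409643 counts in KO. The 9 hepatocyte markers summed to 64954 to 88896 CPM (counts scaled to library size) in WT and 60181 to 85428 CPM in KO. Whole liver was in the same range, at 60016 to 90506 CPM. The 10 cholangiocyte markers summed to 21.4 to 25.8 CPM in WT and 17.3 to 30.8 CPM in KO, with Krt7 at 0 in all 8 libraries, Anxa13 and Cftr at 0 in all WT and Muc1 at 0 in all KO libraries. The 12 Kupffer cell markers summed to 34.0 to 125 CPM in WT and 31.1 to 90.7 CPM in KO, against 302 to 400 CPM in whole liver. The 11 endothelial markers summed to 152 to 347 CPM in WT and 136 to 257 CPM in KO, against 366 to 551 CPM in whole liver. The 12 stellate cell markers summed to 107 to 247 CPM in WT and 127 to 241 CPM in KO. These overlapped whole liver, at 233 to 449 CPM. The 9 markers of portal fibroblasts and mesothelium summed to 15.01 to 27.2 CPM in WT, with Mgp and Upk3b at 0, and to 25.9 to 66.1 CPM in KO. Mitochondrially encoded transcripts took 5.84 to 6.23% of counts in WT and 3.61 to 5.34% in KO libraries, without overlap. Across genes, which are not independent replicates, the log2 change ran against gene length (Spearman correlation -0.26). Each library's deviation from the hepatocyte mean correlated with length at 0.0528 to 0.165 in WT and -0.288 to 0.0413 in KO, without overlap. KO replicates 1 and 4 were lowest, at -0.223 and -0.288. The median length was 2300.5 bases for called higher genes and 3487 bases for called lower genes. The part of the marker and mitochondrial differences in the results below was not tested.

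Of 12507 genes tested, 40 were called (0.32%), with 26 higher (0.208%) and 14 lower (0.112%) in KO hepatocytes. In 35 of the 40 no KO library overlapped a WT library in scaled CPM, which held for 5.94% of all genes tested. The median change of all genes was -0.01. Besides Ptk2, 15 genes kept their call with each of the 16 libraries left out in turn. These were Glul, Glns-ps1, Lhpp, Gstm2, Slc1a2, Slc13a3, Oat, Endod1, Rdh9, Rian and Lect2 among the higher genes and Sfxn1, Aph1b, Slc13a2 and Asb2 among the lower genes. The other 24 lost it without at least 1 library. Animal numbers in the labels put libraries into neighbouring sets, though no source states that these mice were paired. WT replicate 2 has no neighbour, so a block for these sets leaves it without weight in the KO against WT change. The hepatocyte libraries alone with a block for these sets gave 39 calls, of which 20 were shared with the 40, and Sfxn1, Aph1b, Endod1 and Asb2 were among the genes not called. The number called was 16 without WT replicate 2, 25, 21 and 19 without KO replicates 2, 3 and 4 in turn, 26 without tissue KO replicate 4 and 73 without KO replicate 1. Fitting only the 8 hepatocyte libraries gave 5 calls, Ptk2, Glul, Glns-ps1, Lhpp and Gstm2, and DESeq2 on all 16 libraries called 162 (1.3%). At an unadjusted p under 0.05 there were 1119 genes (8.95%).

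Glutamine synthetase rose in KO hepatocytes. Glul (chr1:153899944-153909723, plus strand), which makes glutamine from glutamate and ammonia, had 156, 67.6, 112.42 and 164 FPKM in WT against 594, 636, 537 and 408 FPKM in KO replicates. The lowest KO value lay well above the highest WT value, and KO cells held 4.13-fold more (log2 change 2.05 ± 0.24, edgeR adjusted p = 0.00104). The exact permutation p (both sides) was 0.0286, the smallest that 4 against 4 libraries allow. Whole liver of other mice had 263 ± 46.0 FPKM in WT livers against 242 ± 53.2 FPKM in KO livers (SD, n = 4), between the levels of WT and KO hepatocytes. In bulk RNA, more cells of a type and more RNA per cell cannot be told apart, which holds for every zonal gene named here. Glns-ps1 (chr11:19720355-19721472), a glutamine synthetase pseudogene, had 1.10, 0.634, 1.13 and 0.880 FPKM in WT against 5.36, 6.41, 7.46 and 4.18 FPKM in KO replicates (log2 change 2.57 ± 0.32, adjusted p = 0.00114). It separated the groups as Glul did at a far lower level, and since both share sequence, reads of Glul may have been counted for the pseudogene.

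Transporters and an enzyme that handle glutamate and ammonia, known to be enriched around the central vein, were also higher. Slc1a2, a glutamate transporter, had 2.28, 2.40, 3.85 and 7.06 FPKM in WT against 18.1, 34.1, 26.7 and 20.4 FPKM in KO replicates. Ornithine aminotransferase, Oat, which turns ornithine toward glutamate, had 89.5, 147, 146 and 179 FPKM in WT against 368, 568, 799 and 661 FPKM in KO replicates. Rhbg, an ammonia transporter, had 5.07, 4.08, 2.97 and 9.17 FPKM in WT against 22.7, 17.7, 26.8 and 16.7 FPKM in KO replicates. WT replicate 4 held the highest WT value of all 3 genes and still lay below every KO library. The log2 changes were 2.60 ± 0.34 for Slc1a2 (adjusted p = 0.00126), 2.03 ± 0.31 for Oat (adjusted p = 0.00548) and 1.91 ± 0.32 for Rhbg (adjusted p = 0.00969), and the call of Rhbg was lost without WT replicate 2. Lhpp, a phosphatase gene 34.24 kb from Oat on chromosome 7, had 11.4, 16.3, 17.9 and 18.3 FPKM in WT against 39.7, 53.7, 63.3 and 57.7 FPKM in KO replicates. Replicate 1 was the lowest of its group for both neighbours in both genotypes, and Lhpp rose by 1.68 ± 0.21 (adjusted p = 0.00114).

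Among secreted proteins, Lect2, a chemotactic factor made by hepatocytes, had 86.4, 83.9, 118 and 106 FPKM in WT against 168, 211, 194 and 212 FPKM in KO replicates. The step was smaller than for the transporters but without overlap (log2 change 0.92 ± 0.15, adjusted p = 0.00695). Notum, an enzyme that inactivates Wnt ligands, was at 4.31 to 5.78 FPKM in WT and 8.19 to 11.1 FPKM in KO libraries (log2 change 0.84 ± 0.15, adjusted p = 0.0229), a call lost without WT replicate 2 or 3 or KO replicate 2 or 4. Tnfrsf19, a receptor of the TNF receptor family, was at 0.106 to 0.729 FPKM in WT and 1.01 to 2.72 FPKM in KO libraries (log2 change 2.58 ± 0.46, adjusted p = 0.0208), a call lost without WT replicate 2 or KO replicate 3 or 4. Ctnnbip1, which keeps beta-catenin from binding TCF factors, was lower, at 4.67 to 5.83 FPKM in WT and 2.43 to 3.47 FPKM in KO libraries (log2 change -0.88 ± 0.18, adjusted p = 0.0421), and its call was lost without any of 11 single libraries.

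Since several of these genes are known Wnt targets, the start regions of called genes were searched on both strands for the TCF core letters CTTTGA and CTTTGT, which read TCAAAG and ACAAAG on the other strand and do not share a start. RefSeq windows of 300 bases (build GRCm38.p6, 250 before and 50 after the start) matched 30 of the 40 called genes. Counting all windows of a gene, 8 of 19 called higher genes (42.1%) and 2 of 11 called lower genes (18.2%) held the letters, beside 34.5% of all 27025 genes. A match describes letters only. The windows of Glul, the pericentral gene with the smallest p, of Slc1a2 and Lect2, pericentral called genes with matches, and of Hal, a portal gene that fell, are given 5′ to 3′ with matches in capitals. They lie at chr1:153899679-153899978 (plus strand), chr2:102706188-102706487 (plus), chr13:56548489-56548788 (minus) and chr10:93488518-93488817 (plus). The Slc1a2 start lies inside the span the deposited table gives that gene (chr2:102658659-102790784).
Glul: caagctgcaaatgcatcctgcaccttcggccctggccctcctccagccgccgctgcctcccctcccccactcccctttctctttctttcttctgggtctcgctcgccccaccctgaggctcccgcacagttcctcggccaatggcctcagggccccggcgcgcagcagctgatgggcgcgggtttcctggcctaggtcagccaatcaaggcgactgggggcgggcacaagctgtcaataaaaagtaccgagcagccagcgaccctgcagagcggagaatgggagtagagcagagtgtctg
Slc1a2: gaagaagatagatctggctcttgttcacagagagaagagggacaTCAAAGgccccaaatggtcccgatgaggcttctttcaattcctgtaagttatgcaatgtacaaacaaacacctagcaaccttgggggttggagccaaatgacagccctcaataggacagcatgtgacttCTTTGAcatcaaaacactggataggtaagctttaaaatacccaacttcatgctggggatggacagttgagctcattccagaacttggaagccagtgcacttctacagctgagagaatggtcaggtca
Lect2: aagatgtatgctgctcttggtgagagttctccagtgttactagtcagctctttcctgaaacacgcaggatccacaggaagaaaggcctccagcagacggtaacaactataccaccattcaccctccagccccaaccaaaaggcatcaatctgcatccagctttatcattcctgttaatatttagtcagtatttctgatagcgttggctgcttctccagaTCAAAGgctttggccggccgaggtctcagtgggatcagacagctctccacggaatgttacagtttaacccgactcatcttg
Hal: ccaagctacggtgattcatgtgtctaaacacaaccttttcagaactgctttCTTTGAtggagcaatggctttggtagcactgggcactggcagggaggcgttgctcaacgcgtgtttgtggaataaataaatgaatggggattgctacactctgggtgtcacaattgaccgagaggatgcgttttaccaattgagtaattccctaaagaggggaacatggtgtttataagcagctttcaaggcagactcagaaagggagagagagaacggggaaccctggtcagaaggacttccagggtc
The Glul window held no match. Matches lay 206 and 77 bases before the start in Slc1a2, 31 bases before it in Lect2 and 199 bases before it in Hal.

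**Figure D1:**
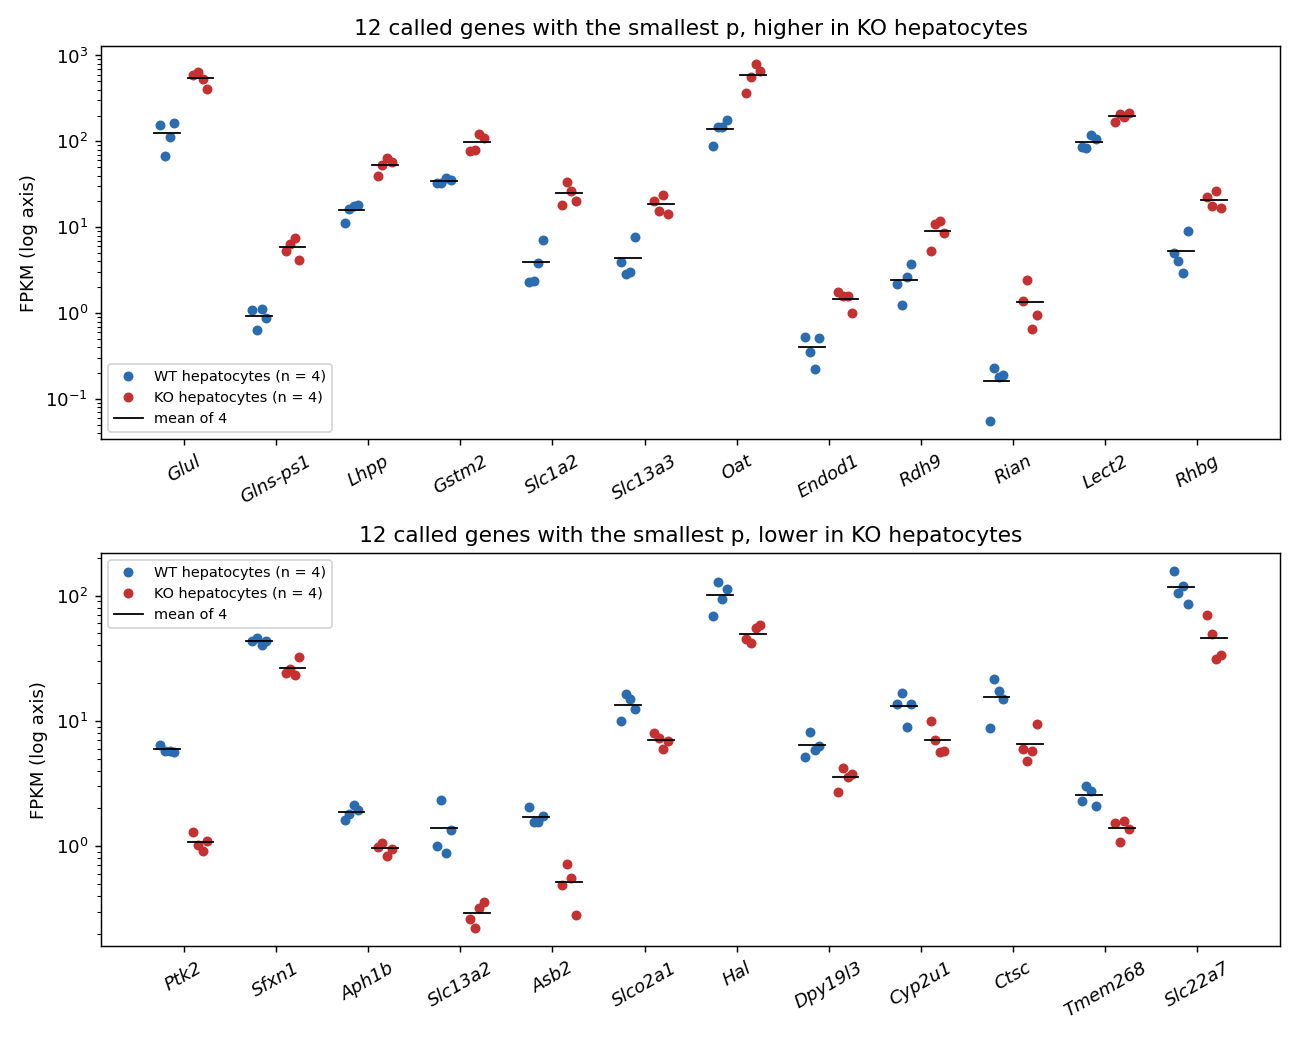
FPKM (log axis) in each WT and KO hepatocyte library for the 12 called genes with the smallest p in each direction, with bars at the group means. KO and WT libraries are apart for every gene shown as higher, with Glul at 408 to 636 in KO against 67.6 to 164 in WT, whereas Cyp2u1 and Ctsc overlap among the lower genes.

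Values above 0 extended over the pericentral list. Like all lists here, it was chosen with earlier results of these data known, so its counts are not an independent test. All 37 listed genes had a fitted change above 0 in KO hepatocytes, beside 47.5% of all genes, with a median of 0.70 beside -0.01. Of these, 7 were called higher (Glul, Lhpp, Slc1a2, Oat, Lect2, Rhbg and Notum), beside 0.208% of all genes. Of the 37, 27 had an unadjusted p under 0.05 beside 4.33% of all genes, and 17 did not overlap between groups beside 2.92%. Cyp2e1, the cytochrome P450 that oxidises ethanol, had 2965, 2379, 3475 and 3191 FPKM in WT against 4063, 5656, 5130 and 5687 FPKM in KO replicates (log2 change 0.70 ± 0.16, adjusted p = 0.0810). Cyp7a1, the rate-limiting enzyme of bile acid synthesis, had 6.16, 4.55, 21.4 and 7.84 FPKM in WT against 36.7, 44.5, 37.2 and 34.9 FPKM in KO replicates (log2 change 1.86 ± 0.62, adjusted p = 0.318). Every KO library lay above every WT library for both, but neither was called. In the hepatocyte fit blocked by animal number, where WT replicate 2 carries no weight, Cyp7a1 had an edgeR adjusted p of 0.0235. Wnt target genes of the list lay on both sides of its median. Log2 changes were 0.32 ± 0.36 for Axin2, 0.26 ± 0.18 for Znrf3 and 0.29 ± 0.25 for Rnf43. They were 1.46 ± 0.42 for Sp5 and 0.76 ± 0.36 for Lgr5, and none of these genes was called, whereas Notum was called at 0.84 ± 0.15.

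The pericentral list was higher in each KO library. Its median, relative to the mean of the WT libraries, was -0.17, -0.11, 0.10 and 0.14 in WT and 0.54, 0.79, 0.74 and 0.64 in KO replicates on the log2 scale. By group means, all 37 members were higher in KO with any 1 hepatocyte library left out. Within the neighbouring sets of animal numbers, 30 of 37 members were higher in KO for WT replicate 1 and KO replicate 1, beside 52.5% of all genes. There were 37 for WT replicate 3 and KO replicate 2 (beside 48.5%), and 34 for WT replicate 4 and KO replicates 3 and 4 (beside 47.0%). WT replicate 2 has no neighbour and is in none of these sets, here and below. The left-out and set counts reuse the same libraries and list, so they are no separate evidence. Whole-liver libraries were at 0.20 to 0.35 in WT and 0.05 to 0.47 in KO, where the genotypes overlapped and the list's median change was 0.05, with 21 of 37 members above 0.

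Portal genes leaned the other way, less uniformly. Of 41 periportal genes, 29 had a fitted change below 0, beside 52.5% of all genes, and the median was -0.28. Hal, Ctsc and Ctnnbip1 were called lower, beside 0.112% of all genes. On the lower side 18 members had an unadjusted p under 0.05 beside 4.61% of all genes, and 9 were lower without overlap beside 3.02%. Histidine ammonia lyase, Hal, which opens histidine breakdown, had 68.8, 129, 94.5 and 112.43 FPKM in WT against 45.03, 41.8, 54.7 and 57.8 FPKM in KO replicates. KO libraries were all below the lowest WT library (log2 change -1.09 ± 0.20, adjusted p = 0.0208), and the call was lost without WT replicate 2 or 4 or KO replicate 2. Ctsc, the lysosomal protease cathepsin C, had 8.80, 21.4, 17.3 and 14.9 FPKM in WT against 5.99, 4.74, 5.77 and 9.45 FPKM in KO replicates (log2 change -1.34 ± 0.27, adjusted p = 0.0393), and KO replicate 4 lay above WT replicate 1. Its call was lost without any of 9 single libraries.

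Portal enzymes without a call included Gldc of the glycine cleavage system, with 112.04, 144, 106 and 117.4 FPKM in WT against 78.8, 59.8, 60.6 and 82.4 FPKM in KO replicates (log2 change -0.84 ± 0.18, adjusted p = 0.0630), and the portal cytochrome P450 Cyp2f2, with 578, 460.1, 519 and 523 FPKM in WT against 463, 251, 279 and 326 FPKM in KO replicates (log2 change -0.74 ± 0.16, adjusted p = 0.0727). The urea cycle enzymes had log2 changes of -0.43 ± 0.22 (Cps1), -0.36 ± 0.16 (Arg1), -0.34 ± 0.18 (Ass1) and -0.18 ± 0.14 (Otc), none called. Spp1, osteopontin, went against the list with 0.814, 1.16, 0.602 and 0.734 FPKM in WT against 4.06, 2.07, 1.44 and 1.23 FPKM in KO replicates (log2 change 1.31 ± 0.33, adjusted p = 0.133). Spp1 is also among the cholangiocyte markers above, whose sum, with Spp1 in it, overlapped between the groups. The cell source of its higher values was not tested. The list's median by library was -0.19, 0.10, 0.03 and 0.03 in WT and -0.28, -0.36, -0.24 and -0.15 in KO replicates, so that KO replicate 4 lay above WT replicate 1. In whole liver 29 of 41 members were also below 0, with a median of -0.16.

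**Figure D2:**
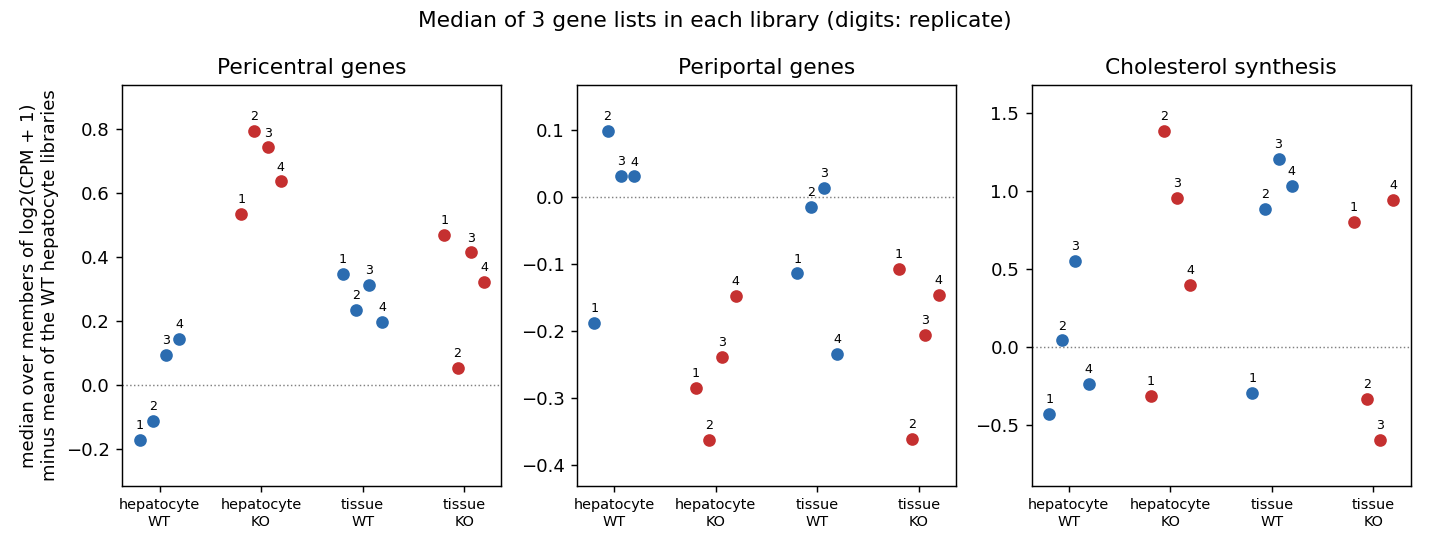
Median log2 level of the pericentral, periportal and cholesterol synthesis lists in each of the 16 libraries, relative to the mean of the WT hepatocyte libraries, with digits giving the replicate. The 4 KO hepatocyte libraries lie at 0.54 to 0.79 for the pericentral list, above the WT hepatocyte and all tissue libraries, whereas for cholesterol synthesis KO replicates 1 and 4 lie among the WT libraries.

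Other called higher genes included enzymes and a transporter. Gstm2, a mu-class glutathione transferase, had 32.5, 32.9, 37.2 and 35.5 FPKM in WT against 77.8, 80.4, 122 and 109 FPKM in KO replicates (log2 change 1.43 ± 0.18, adjusted p = 0.00126), with all KO values above 37.2. Slc13a3, a sodium-dependent dicarboxylate carrier, had 3.96, 2.83, 3.03 and 7.62 FPKM in WT against 20.4, 15.5, 23.8 and 14.1 FPKM in KO replicates (log2 change 2.01 ± 0.29, adjusted p = 0.00369). Rdh9, a retinol dehydrogenase with close relatives that may share reads, had 2.21, 1.23, 2.62 and 3.71 FPKM in WT against 5.31, 11.05, 11.7 and 8.50 FPKM in KO replicates (log2 change 1.84 ± 0.29, adjusted p = 0.00695). All 3 were apart between groups, Rdh9 by the narrowest gap. Endod1, an endonuclease domain gene, had 0.524, 0.354, 0.226 and 0.509 FPKM in WT against 1.76, 1.57, 1.58 and 0.996 FPKM in KO replicates (log2 change 1.80 ± 0.28, adjusted p = 0.00695). Rian, a noncoding RNA of an imprinted cluster, had 0.0552, 0.229, 0.181 and 0.190 FPKM in WT against 1.40, 2.42, 0.660 and 0.954 FPKM in KO replicates (log2 change 2.97 ± 0.47, adjusted p = 0.00695). Both were low in every library, and KO replicates 1 and 2 held the most Rian.

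The remaining calls were each lost without any of at least 4 single libraries. Ang, the ribonuclease angiogenin, was at 28.2 to 41.0 FPKM in WT and 47.2 to 64.5 FPKM in KO (log2 change 0.77 ± 0.14, adjusted p = 0.0208). Anxa5, annexin A5, which binds phosphatidylserine, was at 22.5 to 29.1 and 34.1 to 56.3 FPKM (log2 change 0.80 ± 0.16, adjusted p = 0.0362). Npr2, a natriuretic peptide receptor, was at 5.64 to 11.5 and 18.2 to 24.9 FPKM (log2 change 1.13 ± 0.23, adjusted p = 0.0421). These 3 did not overlap between groups. Serpina7, thyroxine-binding globulin (1.80 ± 0.34), 1810058I24Rik (0.98 ± 0.18), Pcp4l1 (1.17 ± 0.23), Tox (2.95 ± 0.60) and Thbd, thrombomodulin (2.08 ± 0.43), were also higher on the log2 scale. Slc22a29, of the organic anion transporters, rested on KO replicates 3 and 4 (1.71 and 1.65 FPKM against at most 0.0271 FPKM in WT, adjusted p = 0.0432). Fam180a, which neighbours 1810058I24Rik on chromosome 6, had 0 counts in all WT libraries and 4 to 6 counts in each KO library, at least 7.53-fold higher against a floor of 3 counts over the WT group.

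After Ptk2, the lower gene with the smallest p was Sfxn1, a mitochondrial serine carrier, with 43.6, 46.1, 40.4 and 43.4 FPKM in WT against 23.9, 25.8, 23.2 and 32.4 FPKM in KO replicates (log2 change -0.79 ± 0.11, adjusted p = 0.00219). Slc13a2, a relative of Slc13a3 that carries citrate and dicarboxylates, had 0.995, 2.33, 0.878 and 1.35 FPKM in WT against 0.261, 0.220, 0.323 and 0.360 FPKM in KO replicates (log2 change -2.30 ± 0.37, adjusted p = 0.00695). The pair thus moved in opposite directions without overlap in either, while Slc13a4 (log2 change 2.52 ± 0.84, adjusted p = 0.321) and Slc13a5 (log2 change 0.52 ± 0.62, adjusted p = 0.873) were not called. Asb2, a ubiquitin ligase subunit that targets filamins, had 2.03, 1.56, 1.56 and 1.74 FPKM in WT against 0.492, 0.716, 0.558 and 0.283 FPKM in KO replicates (log2 change -1.82 ± 0.30, adjusted p = 0.00969). Aph1b, a gamma-secretase subunit, had 1.62, 1.82, 2.11 and 1.93 FPKM in WT against 0.989, 1.05, 0.839 and 0.948 FPKM in KO replicates (log2 change -1.04 ± 0.15, adjusted p = 0.00416). Both were lower in every KO library. Slc22a7, an organic anion transporter, had 158, 106, 119.3 and 86.0 FPKM in WT against 70.3, 49.6, 31.1 and 33.8 FPKM in KO replicates (log2 change -1.43 ± 0.29, adjusted p = 0.0421), a call lost without any of 10 single libraries.

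The rest of the lower genes had roles in transport, glycosylation, lipid oxidation and matrix. Slco2a1, a prostaglandin transporter, had 9.89, 16.3, 14.99 and 12.4 FPKM in WT against 8.06, 7.35, 5.99 and 6.95 FPKM in KO replicates (log2 change -0.99 ± 0.17, adjusted p = 0.0130). Dpy19l3, a C-mannosyltransferase, had 5.12, 8.15, 5.87 and 6.33 FPKM in WT against 2.70, 4.19, 3.55 and 3.77 FPKM in KO replicates (log2 change -0.91 ± 0.17, adjusted p = 0.0226). Cyp2u1, a fatty acid hydroxylase, had 13.5, 16.7, 8.93 and 13.7 FPKM in WT against 9.90, 7.06, 5.65 and 5.73 FPKM in KO replicates (log2 change -0.98 ± 0.19, adjusted p = 0.0393). WT replicate 3 lay below KO replicate 1 for Cyp2u1 in FPKM, and the other pair did not overlap. Tmem268 (log2 change -0.94 ± 0.19, adjusted p = 0.0421) was at 2.07 to 3.04 FPKM in WT and 1.08 to 1.59 FPKM in KO. Col8a1, a short-chain collagen (log2 change -2.15 ± 0.44, adjusted p = 0.0432), was at most 0.169 FPKM in any hepatocyte library. The calls of Slco2a1 and Dpy19l3 were lost without 3 and 4 single libraries, and those of Cyp2u1, Tmem268 and Col8a1 without 9, 12 and 14.

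Glutathione transferases, which conjugate foreign compounds to glutathione, were mostly above 0. Of 21 tested, 16 had a fitted change above 0 beside 47.5% of all genes, Gstm2 and Gstm6 were called higher beside 0.208%, and 8 had an unadjusted p under 0.05, all higher, beside 4.33%. In the neighbouring sets 10 (WT replicate 1 and KO replicate 1), 15 and 17 of 21 were higher. Gstm3 had 55.4, 19.6, 24.7 and 20.9 FPKM in WT against 133, 61.9, 73.6 and 96.9 FPKM in KO replicates (log2 change 1.52 ± 0.37, adjusted p = 0.112) and Gsta3 did not overlap between groups (log2 change 0.44 ± 0.14, adjusted p = 0.285), and neither was called. In the hepatocyte fit blocked by animal number, where WT replicate 2 carries no weight, Gstm3 had an edgeR adjusted p of 0.0235. Gstm6 lies 37.953 kb from Gstm2 on chromosome 3, and reads of the mu-class genes may be split among them. Gstp1, the most abundant of those named, spread most, with 2678, 2136, 2693 and 1173 FPKM in WT against 4977, 1444, 574 and 714 FPKM in KO replicates (log2 change -0.28 ± 0.50, adjusted p = 0.924). The list's median was 0.35 in hepatocytes and 0.33 in whole liver, where 20 of 21 were above 0.

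None of 39 tested partners of FAK in focal adhesion signalling was called. With 0.32% of all genes called, the absence of a call in lists as small as those of this paragraph says little. The log2 changes of the partners ran from -0.48 to 0.46, and the median was -0.07. Ptk2b, the FAK relative PYK2, had a log2 change of 0.25 ± 0.23, and Src and Pxn had 0.46 ± 0.46 and -0.07 ± 0.15. Among 17 integrin subunits tested, 14 were below 0 with a median of -0.24, none was called, and Itga5 (log2 change -0.73 ± 0.22, adjusted p = 0.253) and Itga6 (log2 change -1.004 ± 0.38, adjusted p = 0.416) had the smallest p. None of 17 YAP and TAZ targets was called, with Ccn2 at 0.87 ± 0.42 and Axl at -0.79 ± 0.24.

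Cholesterol synthesis genes differed more between mice of a genotype. All 23 had a fitted change above 0 with a median of 0.73, yet none was called, only Nsdhl (log2 change 1.15 ± 0.53, adjusted p = 0.537) had an unadjusted p under 0.05, and none was free of overlap. Hmgcs1, which makes the precursor of mevalonate, had 31.2, 46.5, 88.8 and 32.0 FPKM in WT against 29.3, 250.3, 104 and 80.8 FPKM in KO replicates. Sqle, squalene epoxidase, had 2.14, 4.72, 13.5 and 2.84 FPKM in WT against 2.22, 34.9, 16.5 and 4.90 FPKM in KO replicates. KO replicate 2 was the highest and KO replicate 1 was among the lowest for both. In the neighbouring sets, 9, 22 and 23 of 23 members were higher in KO, 9 being for WT replicate 1 and KO replicate 1. In whole liver 21 of 23 were below 0, with a median of -0.32.

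Other lipid genes were also mostly above 0 without a call. In the list of fatty acid oxidation and PPARA targets, 25 of 29 were above 0 (median 0.28), 8 of them at an unadjusted p under 0.05 beside 4.33% of all genes. In the neighbouring sets 15, 17 and 25 of 29 were higher. Aldh3a2, a fatty aldehyde dehydrogenase, had 109, 56.8, 64.5 and 100.5 FPKM in WT against 129, 187, 230.1 and 211 FPKM in KO replicates (log2 change 1.13 ± 0.26, adjusted p = 0.0805). The omega-hydroxylase Cyp4a14 had 0.0224, 0.393, 0.222 and 1.11 FPKM in WT against 0.430, 0.133, 5.54 and 14.6 FPKM in KO replicates, so that KO replicates 3 and 4 held its high values. Of 23 genes of PPARG and lipid droplets, 17 were above 0 (median 0.26), with Mogat1 (log2 change 2.91 ± 0.66, adjusted p = 0.0805) and Pparg (log2 change 1.69 ± 0.49, adjusted p = 0.208) higher without overlap. Fatty acid synthesis genes had a median of 0.26, with 16 of 21 above 0 and 2 at an unadjusted p under 0.05. By group means 11 of 21 were higher without KO replicate 3 (median 0.02), 6 of 21 were higher for WT replicate 1 and KO replicate 1 (median -0.29), and in whole liver 18 of 21 were below 0 (median -0.50).

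The lists of acute phase genes and of coagulation factors had most values below 0. Of 25 acute phase genes and metallothioneins, 23 were below 0 (median -0.39), none was called, 8 had an unadjusted p under 0.05 on the lower side beside 4.61% of all genes, and 7 were lower without overlap beside 3.02%. Of 29 coagulation factors, 26 were below 0 (median -0.17), none was called, and 9 were lower without overlap beside 3.02% of all genes, F8 having the smallest p (log2 change -0.82 ± 0.21, adjusted p = 0.146). Both lists hold the fibrinogen chains Fga (-0.56 ± 0.19) and Fgg (-0.54 ± 0.18). Mitochondrially encoded transcripts had 11 of 13 below 0 (median -0.41), led by mt-Co1 (log2 change -0.59 ± 0.14, adjusted p = 0.105).

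Some lists varied between mice within a genotype. The immediate early genes, which are induced rapidly by stimuli, had a median of 0.85 in KO replicate 1 and of -0.11 to 0.26 in the other hepatocyte libraries, and without KO replicate 1 only 7 of 21 were higher in KO. KO replicates 3 and 4 held the lowest medians of male-biased liver genes (-0.83 and -1.06, against -0.31 to 0.34 in WT and -0.11 to 0.26 in KO replicates 1 and 2). Of 22 male-biased genes, 17 had a fitted change below 0 beside 52.5% of all genes, and 1 was called lower beside 0.112%. Moxd1, a male-biased gene, had 131, 37.6, 77.7 and 34.6 FPKM in WT against 66.8, 15.7, 0.162 and 0 FPKM in KO replicates. Cyp2b9, a female-biased cytochrome P450, had 0, 1.10, 0 and 0.885 FPKM in WT against 0, 0.0708, 25.0 and 94.0 FPKM in KO replicates, again with KO replicates 3 and 4 apart. Fmo2, a called flavin monooxygenase of the female-biased list (log2 change 3.35 ± 0.67, adjusted p = 0.0421), had 0.0686, 0.0536, 0.161 and 0.181 FPKM in WT against 0.171, 0.588, 1.35 and 2.86 FPKM in KO replicates, and its call was lost without KO replicate 3 or 4 and without any of 10 further libraries. Clock genes varied within both genotypes, as Dbp did with 2.37, 5.91, 2.87 and 31.6 FPKM in WT against 4.55, 16.4, 50.05 and 44.4 FPKM in KO replicates, and none of 21 was called. The part of sex-biased, clock and immediate early genes in the other results was not tested.

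Further lists held no call, beside 0.32% of all genes. The medians were 0.10 for 27 cell cycle genes, 0.00 for 28 hepatocyte transcription factors, -0.02 for 24 genes of the unfolded protein response, -0.26 for 30 interferon-stimulated genes, 0.27 for 19 heat shock genes, 0.16 for 24 NRF2 targets, 0.03 for 24 genes of bile acid synthesis and transport, and 0.17 for 21 genes of gluconeogenesis. Of these, the heat shock genes had 16 of 19 above 0, with Hspa8 at 0.45 ± 0.12 and Dnaja1 at 0.44 ± 0.13. On the higher side 4 heat shock genes had an unadjusted p under 0.05 beside 4.33% of all genes, and 2 did not overlap beside 2.92%. The NRF2 list had 18 of 24 above 0, and the interferon list had 24 of 30 below 0.

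**Figure D3:**
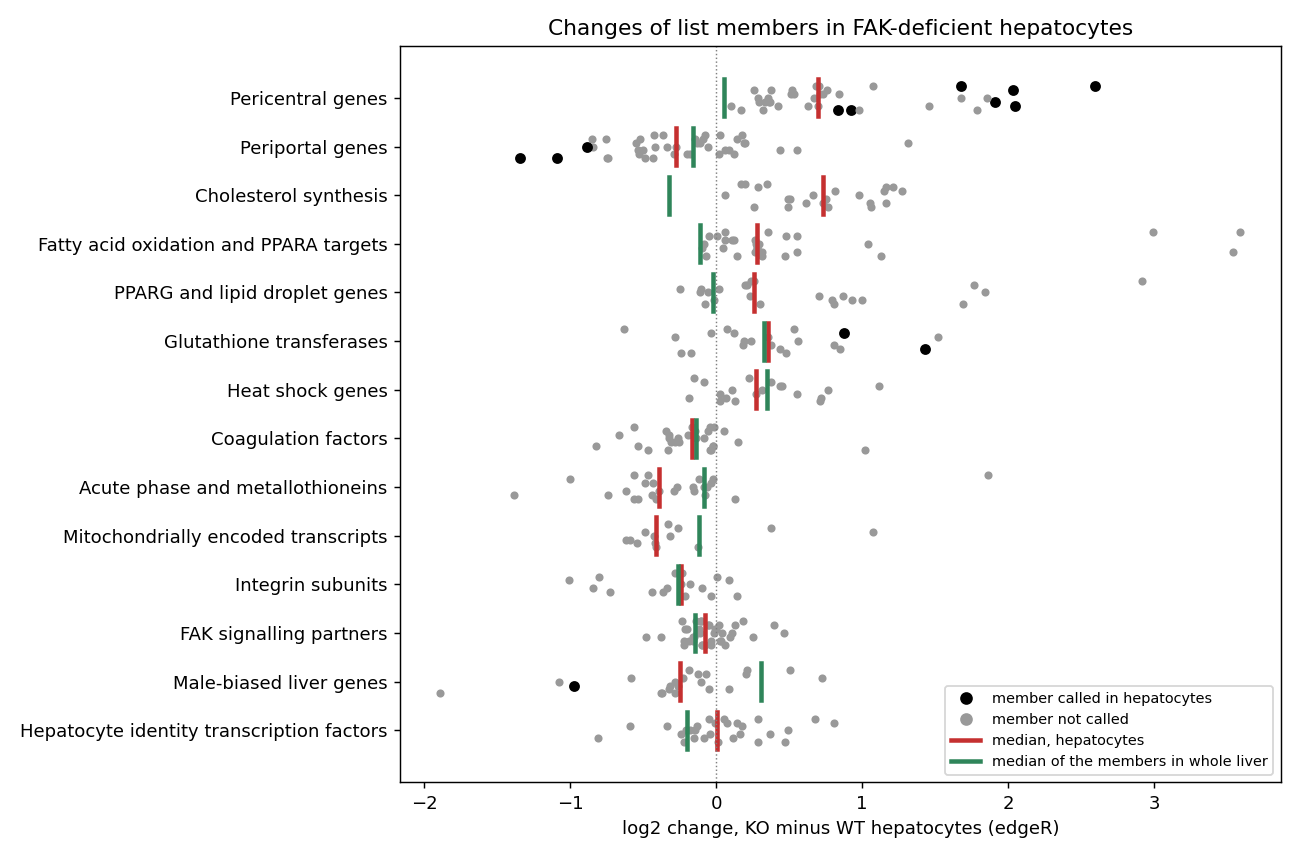
Log2 change (KO against WT hepatocytes) of each member of 14 gene lists, with called genes in black, the hepatocyte median in red and the tissue median in green. All pericentral members lie above 0 with a median of 0.70 in hepatocytes and 0.05 in tissue, and the FAK partners lie between -0.48 and 0.46.

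In whole liver only Ptk2 was called (0.008% of genes), yet 2017 genes (16.1%) had an unadjusted p under 0.05, beside 8.95% in hepatocytes. The called hepatocyte genes were compared with these livers, where Ptk2 had a log2 change of -1.99. Of the other 39, 28 had the same direction in tissue, and each of the 39 had its larger change in hepatocytes, the cells in which they were chosen. The difference between the 2 changes was called for no gene with edgeR (0 of 12507) and for 36 genes with DESeq2. At an unadjusted p under 0.05 there were 1002 genes (8.01%) with edgeR. In that test 33 of the 39 had an unadjusted p under 0.05. Their choice by the hepatocyte change favours this, so the count is no separate evidence. Among called genes, Glul and Glns-ps1 had the smallest adjusted p, with Glul at 2.05 in hepatocytes and -0.12 in tissue (interaction adjusted p = 0.0629). Anxa5 (0.80 and 0.74), Slc22a7 (-1.43 and -0.94) and Hal (-1.09 and -0.67) had values closer to each other. Hepatocyte preparations and tissue came from different mice, so preparation and mouse cannot be told apart.

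**Figure D4:**
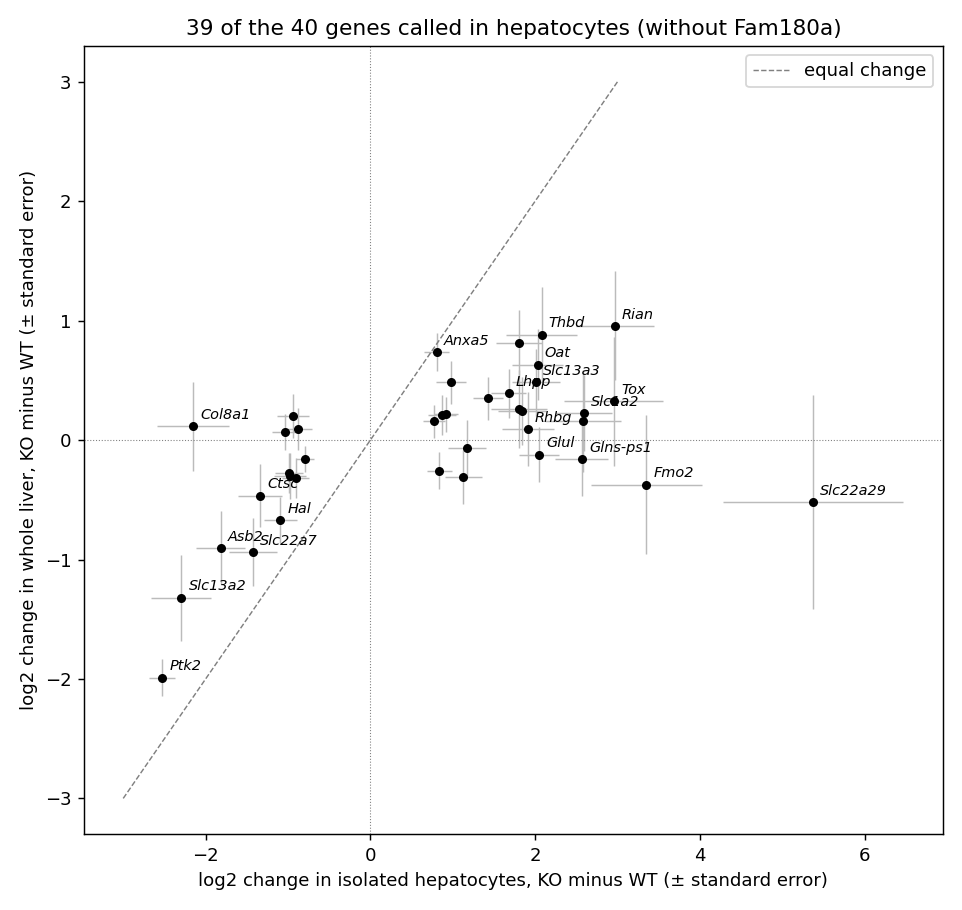
Log2 change in hepatocytes (x axis) and in whole liver (y axis) of 39 called genes, without Fam180a, with standard errors and a dashed line of equal change. The points lie closer to 0 on the tissue axis, with Glul at 2.05 and -0.12, and Ptk2 lies nearest the lower left at -2.53 and -1.99.

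The same genes were read in livers of mice on a diet containing DDC, which injures bile ducts, with 3 WT and 3 KO livers in each of 2 designs. In Bred mice Cre came from Alb-Cre, and in Virus mice adult FAKfl/fl mice received AAV8-TBG-Cre, in which a hepatocyte promoter drives Cre, or AAV8-TBG-Null as WT. Of the 39 called genes tested there, 5 were called in Bred livers, beside 6.25% of all genes, and 2 in Virus livers, beside 2.66%. Ptk2 was lower in both (-1.70 and -1.26, adjusted p = 0.00300 and 0.00575). In Bred livers Slc13a3 was higher (1.69, adjusted p = 0.0239), as was Thbd (1.92, adjusted p = 0.00862), and Cyp2u1 and Ctsc were lower (-2.15 and -0.58, adjusted p = 0.00847 and 0.0294). In Virus livers Thbd was lower (-1.91, adjusted p = 0.0102). Glul had -0.61 and -0.08 in the 2 designs and was not called. The Bred count was 3 without Bred WT replicate 1, and the Virus count was 1 without Virus KO replicate 1 or 2 and 4 without Bred WT replicate 1 or Bred KO replicate 2. Of the 38 other than Ptk2, 24 had the hepatocyte direction in Bred and 14 in Virus livers.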

How the data were processed

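RNA-seq of rRNA-depleted libraries was deposited as a table of 35275 genes. Per the submitters' notes and the study's methods, the authors used STAR for alignment to mm10 and HTSeq 0.6.1 for the deposited count per gene. The version of STAR, like the strand setting of counting, is not given in the sources used here. The deposited FPKM follow from these counts and the gene lengths. Names were matched by Ensembl identifier (34490 genes, and 27 names had become dates). Here counts were fitted in R 4.3.3 with edgeR 4.0.16 (quasi-likelihood, TMM scaling, filterByExpr with a minimum count of 10 and total of 15) in 1 model of the 4 groups of 16 libraries, which left 12507 genes. P-values were adjusted by Benjamini-Hochberg and called under 0.05. The 12 livers on the diet were fitted separately (13955 genes). limma 3.58.1 on log2(FPKM + 1) and DESeq2 1.42.0 were alternatives, with other scaling, no filter, gene length, blocks and left-out libraries. On simulated counts with known changes the fit recovered the largest and missed most of the smallest. Replicates differed beyond sampling noise. Library totals limit the precision of low genes. Named were Ptk2, all called genes (the 12 with the smallest adjusted p per direction by library), and per list the called members and up to 4 with the smallest p, and some further list members were named after their values were seen. The genes and lists were chosen with earlier results of these data known.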

Additional observations from a re-analysis of the deposited data

Results flagged for a closer look

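Of 80 groups of 4 hepatocyte libraries examined, 4 held a library far from the other 3, and chance gives about 1 in 20 groups. Ptk2 was 6.46 FPKM in WT replicate 1, against 5.68 to 5.79 in the other WT libraries. Ang was 47.2 FPKM in KO replicate 3, against 61.8 to 64.5 in the other KO libraries. 1810058I24Rik was 22.9 FPKM in KO replicate 4, against 18.3 to 18.9. Npr2 was 24.9 FPKM in KO replicate 2, against 18.2 to 19.4.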

How the results depend on the processing

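No called gene changed direction under any alternative run, and scaling by DESeq2 size factors kept 40 calls. Small list medians did change sign with 1 library left out, as for immediate early genes (-0.23 without KO replicate 1) and cell cycle genes (-0.03 without KO replicate 1). DESeq2 called 162 hepatocyte genes (93 higher, 69 lower), 36 genes for the difference from tissue, and 8 and 5 of the hepatocyte genes in Bred and Virus livers. The hepatocyte libraries alone called 5 (4 higher, 1 lower). limma on log2(FPKM + 1) called 37, with 8 lower and 3 for the difference from tissue. Without the count filter 55 were called, with 3 for the difference from tissue and 4 in Virus livers. Removing a gene length trend gave 43, of which 36 were shared with the 40. With single libraries left out, hepatocyte calls ranged from 16 to 73 (11 to 42 higher, 5 to 31 lower), calls for the difference from tissue from 0 to 4, Bred calls from 3 to 7, Virus calls from 1 to 4, and the Ptk2 change from -2.60 to -2.47. Lower calls were 23 without WT replicate 1 and 8 without WT replicate 4 or tissue KO replicate 2.

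The replicate numbers were not stated to pair mice, and same-numbered WT and KO libraries deviated with correlations of 0.288, -0.0418, -0.336 and 0.146. Libraries with neighbouring animal numbers had correlations of 0.288 (WT 1 and KO 1), 0.305 (WT 3 and KO 2), 0.367 (WT 4 and KO 3) and 0.146 (WT 4 and KO 4). With the replicate block 27 genes were called, 16 of them higher, and 10 in Bred livers. A block by neighbouring animal numbers, with hepatocytes alone and WT replicate 2 without weight, called 39, of which 20 were shared. Leaving out both tissue WT replicates 2 and 4, chosen after seeing the data as were the left-out and neighbouring-set counts of gene lists, gave 46. The depth of 15062059 counts or more leaves genes with a few counts, such as Fam180a, imprecise. The cause of these differences was not tested.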
